A study of Mus musculus and synthetic construct with 30 samples.

Results

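The reporter RNA of transfected C2C12 cells was compared with the vector DNA of the same pool, barcode by barcode, in a massively parallel reporter assay (MPRA). A barcode was kept when at least 3 of the 5 DNA libraries held 10 or more counts of it, which left 16285 of 23420 barcodes (69.5%). Each barcode is a 10-nt tag that belongs to 1 designed oligo, and 5 tags were designed for each 90-nt tile. The labels give 5 GFP-RNA libraries (A_1, A_2, B_1, B_2 and B_3) and 5 Vector DNA libraries (A_1, A_2, A_3, B_1 and B_2), 10 of the 30 samples in the series, with no genotype, strain, treatment or time. C2C12 is an established line of mouse myoblasts, transfected here transiently with lipofectamine, so the reporter was read from plasmid and not from the genome. Per the methods, RNA came from biological replicates at different passages. DNA libraries were made from the vector pool itself on different days, so the spread among them is that of library making and sequencing. What the letters A and B stand for is not given in the sources used here.

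In such a pool a tile of genome is placed beside a minimal promoter and GFP, and the barcode becomes part of the GFP transcript. A tile that acts as an enhancer or promoter raises the number of transcripts made from each plasmid, so the RNA count of a barcode is read against its DNA count. The barcode is itself part of the RNA that is reverse transcribed, amplified and sequenced, and several barcodes per tile are used so that the tile can be separated from its tag.

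The ends of the distribution of RNA to DNA ratios are shown first, because both tails are described through the barcodes they hold. The 6 barcodes of highest and the 6 of lowest log2 ratio among the called barcodes read as follows, 5′ to 3′ in the direction of the oligo, with each run of 4 or more T in capitals.
Highest 1: aagattactc
Highest 2: ggcagagtat
Highest 3: gatgcacgtc
Highest 4: ttaagttcat
Highest 5: acatagacat
Highest 6: ttgatacaat
Lowest 1: catagTTTTT
Lowest 2: taaTTTTgcg
Lowest 3: aaTTTTgtcc
Lowest 4: taacTTTTTg
Lowest 5: gaacTTTTac
Lowest 6: taTTTTTTcg
None of the 6 highest barcodes and all of the 6 lowest barcodes hold such a run. The oligo annotation used here covers 1196 barcodes, and the tiles behind these 12 are not named.

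RNA libraries held 18725458 to 35098552 counts and DNA libraries 9846269 to 24602523. Counts were scaled by the median over kept barcodes with 10 or more counts, which was 486 to 878 in RNA and 385 to 943 in DNA, so that a scaled count of 1 is a typical barcode of that library. All 16285 barcodes had RNA counts in at least 1 library, with a smallest RNA sum of 16 counts, and 15889 had 10 or more counts in all 5 RNA libraries. Pearson's r of log2 scaled counts over the 16285 barcodes was 0.959 to 0.972 between RNA libraries, 0.979 to 0.987 between DNA libraries and 0.908 to 0.932 between RNA and DNA. The DNA A_1 library and the RNA B_1 and B_3 libraries share counts on barcodes outside the filter, as given in the closing section. Calls without these libraries and DNA A_3 together are given where calls are first counted.

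Most barcodes gave RNA close to the level of their DNA. The median log2 ratio of RNA to DNA was 0.02, with quartiles at -0.29 and 0.32, and 15171 barcodes (93.2%) lay within 2-fold of a ratio of 1. The median standard error (SE) of a ratio was 0.10 on the log2 scale (5th to 95th percentile, 0.05 to 0.36). Standard errors were back-calculated as the absolute log2 ratio over the square root of the F statistic of the edgeR test below. They are approximate. The tails were unequal. The 1st percentile of the log2 ratio was -1.39 and the 99th was 2.46, the lowest ratio was -2.43 and the highest 9.61. Above a log2 ratio of 2 stood 242 barcodes and below -2 stood 27. Above 3 stood 94 barcodes, above 5 stood 20 and above 7 stood 10, against 0 barcodes below -3.

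With edgeR's quasi-likelihood test, 682 of 16285 barcodes were higher in RNA (4.19% of those tested) and 348 were lower (2.14%), at a Benjamini-Hochberg adjusted p under 0.01 and a log2 ratio beyond 1 in either direction. At the same adjusted p without a minimum ratio, 3809 were higher and 3130 lower. Without DNA A_1, DNA A_3, RNA B_1 and RNA B_3 the counts were 621 higher and 318 lower, of which 591 and 274 were among the calls from all libraries. The split rests on the scaling. When libraries were scaled by total counts instead, the median log2 ratio shifted to -0.58, and 328 barcodes were higher and 2811 lower. Higher barcodes then made up 10.4% of calls in place of 66.2%. Median, TMM and RLE scaling put the median ratio between 0.00 and 0.02 and left 658 to 682 higher and 348 to 368 lower calls.

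A group of 10 barcodes held much of the RNA. The 10 highest ratios ran from 7.93 to 9.61, and the next barcode (ctaccgtacc) stood at 6.81, 112-fold over DNA. In the RNA libraries these 10 took between 20.3% and 22.1% of all counts, against 0.072% to 0.088% in DNA. They were chosen by their ratio in these libraries, so their shares are a description. Their scaled counts were 0.490 to 5.38 in DNA and 314.0 to 1853 in RNA. In the vector pool they lay in deciles 4 to 10 of abundance. Across the 5 RNA libraries their coefficients of variation were 2.23% to 8.73%, and 9 of the 10 ranked among the 10 most abundant barcodes in every RNA library. Any pair of them differed at 5 or more of the 10 bases.

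The most abundant of them in RNA was Highest 2 (ggcagagtat). Its scaled count was 1739.9, 1824, 1853, 1853 and 1765 in RNA A_1, A_2, B_1, B_2 and B_3. In DNA A_1, A_2, A_3, B_1 and B_2 it was 1.93, 2.32, 2.18, 3.01 and 2.88. The groups lay nearly 3 orders of magnitude apart and the log2 ratio was 9.51 (SE 0.10, n = 5 and 5, edgeR adjusted p = 1.51e-35). This barcode was ranked 1 in RNA and 3263 in DNA, and it alone took 4.51% to 4.74% of the counts of an RNA library. The most counted barcode of a DNA library was a different barcode and took 0.107% to 0.116% of its counts.

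Highest 1 (aagattactc) had the largest ratio. Its scaled count was 968.0, 1008, 1092, 1079 and 1039.7 in the RNA libraries and 1.04, 1.22, 1.08, 1.61 and 1.62 in the DNA libraries. The log2 ratio was 9.61 (SE 0.11), a 779-fold excess. The DNA libraries of letter B were the higher ones for both barcodes, and the ratio fitted within letter A was 9.78 against 9.37 within letter B. Highest 3 (gatgcacgtc) had less DNA, with scaled counts of 0.490, 0.492, 0.564, 0.621 and 0.573. Its RNA was 374.0, 380.8, 386.4, 394.2 and 374.3, and its log2 ratio was 9.43 (SE 0.06).

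The barcodes most abundant in DNA behaved otherwise. The most counted DNA barcode, cacggccatc, had scaled counts of 28.0 to 30.2 in the DNA libraries and 37.4 to 38.8 in the RNA libraries, and its log2 ratio was 0.37 (SE 0.04). The other two of the 3 most counted in DNA stood at 0.20 and 0.27. All 3 passed the adjusted p of 0.01 and none reached a 2-fold ratio. The most counted 1% of barcodes (163) was taken in each library on its own, so the sets differ between RNA and DNA. These took 7.37% ± 0.04 of counts in DNA libraries (SD, n = 5) and 33.2% ± 0.9 in RNA libraries (n = 5). The shares differed by 25.8 percentage points (exact permutation test over libraries, two-sided, p = 0.00794, adjusted over 8 values p = 0.0106). That p is the smallest that 5 against 5 libraries allow. RNA counts hold the spread of reporter output on top of that of the plasmid. The direction was thus largely set beforehand, and the shares are given as a description. Without the 10 barcodes of highest ratio the shares were 15.6% ± 0.4 in RNA and 7.38% ± 0.04 in DNA, so RNA remained the more concentrated of the pools below those 10.

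Barcodes 1 base away from an abundant RNA barcode were examined, since a read with 1 wrong base would be counted for such a neighbour. The 10 top barcodes had 20 kept neighbours, of which 6 were called higher, beside 4.19% of all barcodes. Their log2 ratios ran from -0.43 to 2.87 with a median of 0.61. The highest was ctgcatgatt, which differs from ctgcatgatc at the last base and had 4750 to 13084 RNA counts against 680 to 1805 DNA counts. At the other end, atgttacgtg, a neighbour of gtgttacgtg, had a log2 ratio of -0.43 with 2150 to 3887 RNA counts. Another 4 neighbours lay outside the filter with 14 to 64 RNA counts and 0 to 10 DNA counts each.

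Over the whole pool, 268 barcodes outside the top 1% of summed RNA stood 1 base from a barcode in it. The median log2 scaled count of these neighbours minus that of the other 15854 was 0.13 ± 0.03 (SD, n = 5) in RNA and -0.13 ± 0.02 (n = 5) in DNA. The difference between RNA and DNA was 0.26 on the log2 scale (exact permutation test, p = 0.00794, adjusted p = 0.0106), and the groups did not overlap. It was 0.16 with 50 or more counts in at least 3 DNA libraries, and 0.19 without the 10 barcodes of highest ratio. Barcodes 1 base apart can also belong to the same tile. Of 198 such pairs of kept barcodes with annotation, 52 (26.3%) shared a tile. Neighbours also share all but 1 base with a barcode of the top 1%, which was set by RNA counts of these same libraries. Since ratios varied with the bases of the barcode, as given below, the p-value does not bear on misread bases alone. The parts of shared tiles and shared bases in the difference were not tested.

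The lower tail was made up in large part of barcodes with a run of T. Of 348 barcodes lower in RNA, 194 (55.7%) held a run of 4 or more T, while such barcodes made up 2.26% of the kept pool (368 of 16285). The share was 36.2% of the 445 lower calls in letter A, 66.4% of the 295 in letter B and 10.4% of the 2811 with total-count scaling. Their median log2 ratio was -1.10 against 0.03 for the other 15917. The share called lower was 52.7% among them, beside 2.14% of all barcodes, and 4 were called higher. Below a log2 ratio of -2, 21 of 27 barcodes held the run. The run was chosen after the ratios were seen, so these values are a description with no test.

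Lowest 1 (catagTTTTT) shows the size of the deficit. Its scaled count was 0.0520, 0.0144, 0.0376, 0.0826 and 0.0123 in the RNA libraries and 0.203, 0.217, 0.179, 0.222 and 0.255 in the DNA libraries. The groups did not overlap and the log2 ratio was -2.43 (SE 0.36, edgeR adjusted p = 1.12e-06). Lowest 3 (aaTTTTgtcc) had more DNA, at 0.336, 0.383, 0.429, 0.352 and 0.319. Its RNA was 0.128, 0.0226, 0.0661, 0.0863 and 0.0564, again below every DNA library, and its log2 ratio was -2.32 (SE 0.27).

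Lowest 2 (taaTTTTgcg) was close to the limit of counting. It had 10, 4, 11, 3 and 0 counts in the RNA libraries and 28, 26, 20, 26 and 41 counts in the DNA libraries. Its log2 ratio of -2.37 (SE 0.57) lost the call in 5 of the alternatives given in the closing section. A count of 0 allows up to 3 counts at that depth, and all such limits cover counting error only, since no molecular identifiers are named in the study's methods.

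The DNA levels of these barcodes were examined in turn. Of all 490 barcodes with TTTT, 368 (75.1%) passed the DNA filter, against 15917 of 22930 (69.4%) without it. Among those that passed, the median scaled DNA count was 1.12 with TTTT and 0.988 without. The median log2 scaled count of TTTT barcodes minus that of all others was 0.23, 0.19, 0.19, 0.28 and 0.20 in DNA A_1, A_2, A_3, B_1 and B_2. In RNA A_1, A_2, B_1, B_2 and B_3 it was -0.78, -0.88, -0.99, -1.04 and -0.90. Every DNA library was above 0 and every RNA library below -0.7. The RNA minus DNA difference was -1.14 on this scale, -1.05 within letter A and -1.21 within letter B.

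The deficit grew with the length of the run and changed with the base after it. Barcodes whose longest T run was at most 1, exactly 2 or exactly 3 bases had median log2 ratios of 0.02, 0.06 and -0.02 (n = 8392, 6075 and 1450). At 4, 5 and 6 bases the medians were -0.97, -1.29 and -1.57 (n = 306, 51 and 10). The only barcode with a run of 7 stood at -1.84, and all 62 barcodes with 5 or more T in a row had a ratio below 0. The step thus lay between 3 and 4 bases. A run of exactly 4 T followed by G had a median of -1.38 (n = 82), one followed by A -1.03 (n = 75) and one followed by C -0.39 (n = 58). The shares called lower were 76.8%, 50.7% and 12.1%. The place of the run in the barcode mattered less, with medians between -0.88 and -1.31 over the 7 possible starts.

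The number of T without a run did not go with the deficit. Barcodes with exactly 5 T had a median log2 ratio of -0.97 with the run (n = 184) and 0.03 without it (n = 988). With exactly 6 T the medians were -1.39 (n = 87) and -0.01 (n = 177). Barcodes in which 1 other base broke the run (TTTNT or TNTTT with N not T, and no TTTT) had a median of -0.06 (n = 417). Runs of the other bases stood nearer to 0, at 0.27 for AAAA (n = 242), -0.06 for CCCC (n = 85) and -0.13 for GGGG (n = 163).

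The contrasts per library on homopolymers and T content include the TTTT barcodes, so their p-values are no separate evidence on the run. Barcodes with a run of 4 or more of any base (857) minus the rest had a median log2 difference of -0.47 ± 0.03 (SD, n = 5) in RNA and 0.04 ± 0.04 (n = 5) in DNA (exact permutation test, p = 0.00794, adjusted p = 0.0106). Barcodes with 5 or more T (1465) minus those with 0 or 1 T (2532) gave 0.39 ± 0.03 in RNA and 0.56 ± 0.10 in DNA (the same p-values). Without the TTTT barcodes the RNA minus DNA difference went from -0.51 to -0.01 for homopolymers and from -0.17 to 0.04 for T content, with adjusted p of 0.849 and 0.561. Both calls therefore rest on the TTTT barcodes. The T content difference was -0.0839 within letter A and -0.30 within letter B.

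Sister barcodes of the same tile separate the tag from the tile. Among the annotated barcodes, 32 kept TTTT barcodes from 30 tiles had at least 2 kept sisters without the run. Not all of these tiles are mouse genome, since some come from the CMV and Ef1a promoters or a scrambled promoter. In 26 of the 32 the TTTT barcode lay below the median of its sisters, and the median difference was -0.88 on the log2 scale, from -2.20 to 1.63. All 10 runs followed by G lay below their sisters, with a median difference of -1.42. Of 9 followed by C, 4 lay below and 5 above, with a median difference of 0.00. The set below shows the TTTT barcode of largest deficit in each of 3 loci and the 3 of largest excess, with the run in capitals, the tile in mm10 and the log2 difference from the sisters.
Morc2a, chr11:3676716-3676805, difference -2.20: acTTTTgcgc
Fendrr, chr8:121068263-121068352, difference -1.95: ataTTTTgcc
Cdkn1a, chr17:29091994-29092083, difference -1.89: acTTTTgcgt
Morc2a, chr11:3681799-3681888, difference 0.26: atgTTTTcat
Morc2a, chr11:3668675-3668764, difference 0.51: TTTTctaggt
Enc1, chr13:97240546-97240635, difference 1.63: aTTTTccgat
The 3 with a deficit hold G after the run and the 3 with an excess hold C. The last of these had a log2 ratio of 1.64 against a sister median of 0.01 and was 1 of the 4 TTTT barcodes called higher. Taking the largest deficit per locus left out atacTTTTcg of another Morc2a tile (chr11:3664606-3664695). Its difference was -1.94 with C after the run, so the split by the next base did not hold throughout.

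The 154 lower barcodes without the run were rich in G. They held 3.71 G per barcode on average against 2.52 for all barcodes without the run, and 59.1% ended in G against 26.7%. None had 5 or more A, and their lowest log2 ratio was -2.15. Among barcodes without TTTT, the median log2 ratio fell from 0.27 at 0 or 1 G to -0.06 at 3 G and -0.40 at 6 G (n = 3347, 4352 and 136). It rose from -0.14 at 0 or 1 A to 0.11 at 3 A and 0.54 at 6 A (n = 3999, 4091 and 90).

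The lowest of the 4-base words present in at least 100 such barcodes were GCGG (-0.43, n = 494), GTGG (-0.36, n = 261) and GGTG (-0.33, n = 355). The highest were AGAA (0.37, n = 285), AAGA (0.35, n = 282) and ACAA (0.33, n = 249). Position counted too. Barcodes ending in G had a median of -0.25, those ending in C 0.11 and those ending in T 0.13, and no kept barcode ended in A. At the position before the last, A stood at 0.22 and C at -0.18. A linear fit on the base at each position and the TTTT run described 21.0% of the variance of log2 ratios limited to between -3 and 3, and base counts alone 9.72%. DNA abundance described 0.432%.

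GC content joins G with C, and C did not go with G. Among barcodes without TTTT, the median log2 ratio was 0.02 at 0 or 1 C, 0.03 at 3 C and 0.14 at 5 C (n = 3668, 4292 and 515). Part of the GC contrast differed between the DNA libraries. Barcodes with 7 or more G or C (2150) minus those with 3 or fewer (2758) had a median log2 difference of -0.70 ± 0.04 (SD, n = 5) in RNA and -0.36 ± 0.15 (n = 5) in DNA. The RNA minus DNA difference was -0.34 (exact permutation test, p = 0.00794, adjusted p = 0.0106). It was -0.45 without TTTT barcodes, a setting chosen after seeing the data. The DNA libraries of letter A stood at -0.27, -0.28 and -0.22 and those of letter B at -0.57 and -0.46, whereas the RNA libraries spanned -0.75 to -0.64. Within letter A the RNA minus DNA difference was -0.47, and within letter B it was -0.17. Barcodes with at least 2 CG dinucleotides (2062) minus those with none (6004) showed the same arrangement, with -0.87 ± 0.04 in RNA and -0.65 ± 0.13 in DNA (exact permutation test, p = 0.0159, adjusted p = 0.0181). Its difference was -0.32 within letter A and -0.09 within letter B. With 2 and 3 libraries per group neither letter can give a p below 0.2.

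Barcodes rich in A were called higher more often than all barcodes were. Of 597 barcodes with 5 or more A, 50 (8.38%) were called higher and 0 lower, beside 4.19% and 2.14% of all barcodes. Their median log2 ratio was 0.43, with 0.48 in the fit to letter A and 0.36 in the fit to letter B. Of 859 barcodes with 5 or more G, 26 (3.03%) were higher and 41 (4.77%) lower, and their median was -0.36. The 198 higher calls in the lowest decile of DNA abundance were not rich in A. They held 2.35 A on average against 2.33 over all barcodes, 3.54% had 5 or more A against 3.67%, and 30.3% ended in G against 26.6%. The 484 higher calls of the other deciles held 2.67 A on average, 8.88% had 5 or more A and 17.4% ended in G.

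RNA rose in proportion to DNA over the range of the pool. The slope of log2 scaled count on the log2 median of the DNA libraries was 0.999 ± 0.011 (SD, n = 5) for RNA libraries and 1.00 ± 0.01 (n = 5) for DNA libraries against the other DNA libraries. The slopes differed by -0.0022 (exact permutation test, p = 0.738, adjusted p = 0.738). The sign was not stable, and with 50 or more counts in at least 3 DNA libraries RNA slopes were the steeper by 0.0170 (exact permutation test, p = 0.00794). The scatter around that line was 0.756 ± 0.026 in RNA and 0.263 ± 0.023 in DNA on the log2 scale, and the lowest RNA library (0.717) lay above the highest DNA library (0.290). Since the line is drawn through DNA libraries of the same pool, the scatter is given as a description.

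Over deciles of DNA abundance the median log2 ratio was between -0.01 and 0.04 in the upper 9 deciles and 0.14 in the lowest. The interquartile range was 0.92 in the lowest decile and 0.48 in the highest. The lowest decile, with a median DNA count of 45, held 198 of the 682 higher calls (29.0%) and 26 of the 348 lower calls (7.47%). That is 12.2% of its barcodes higher and 1.60% lower, beside 4.19% and 2.14% of all barcodes. The other deciles held 41 to 61 higher and 25 to 49 lower calls each. In the lowest decile lay 86 of the 242 barcodes above a log2 ratio of 2, 2 of the 37 above 4, and 0 of the 10 at the top. The median SE was 0.36 there and 0.05 in the highest decile.

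Since the same DNA counts enter the abundance and the ratio, barcodes were also binned on the DNA of 1 letter and their ratio taken from the libraries of the other. Binned on letter A, the lowest decile had 139 higher and 11 lower calls in the fit to letter B. That is 8.53% higher, beside 3.75% of all barcodes in that fit, and 0.675% lower, beside 1.81%. Binned on letter B, it had 145 higher and 30 lower calls in the fit to letter A. That is 8.90% higher, beside 4.56%, and 1.84% lower, beside 2.73%. The 95th percentile of the log2 ratio was 2.00 and 2.37 in these lowest deciles and 0.74 to 1.05 in the other deciles. The median was 0.14 when binned on letter A and -0.01 when binned on letter B. The larger share of higher calls in the lowest decile was thus seen in both splits, and the shift of its median in 1 of them. The filter on DNA counts used the libraries of both letters.

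The edge of the filter lay inside that decile. Barcodes with 10 or more counts in exactly 3 DNA libraries (139) had a median log2 ratio of 0.76 and 44 higher calls, and those with 4 libraries (158) had 0.30 and 30 higher calls. The 15988 with all 5 libraries had 0.02 and 608, beside 4.19% of all barcodes. These groups are set by low counts in the same DNA libraries that form the ratio, so their values are a description. Just outside, the 156 barcodes with 2 such DNA libraries had a median of 150.5 RNA counts against 48 DNA counts summed over libraries.

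The spread between libraries fell with DNA level. In the lowest decile the median SD of a barcode over libraries was 0.62 in RNA and 0.43 in DNA on the log2 scale, where Poisson counting, which leaves out the spread of transfection, amplification and library making, gives 0.20 and 0.21. In the highest decile it was 0.085 and 0.063, where counting gives 0.025 in both. RNA was thus the more variable of the pair at both ends of the range.

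The tails held across the letters to different degrees. Over 16285 barcodes the log2 ratio fitted to letter A and that fitted to letter B had a Pearson's r of 0.789 and a Spearman's rho of 0.752. Within 2-fold of a ratio of 1 the r was 0.582 (n = 15171). The points share tiles, barcodes and plasmid pool. Of 743 barcodes higher in letter A (4.56%), 530 (71.3%) also had a log2 ratio above 1 in letter B and 4 had the opposite sign. Of 610 higher in letter B (3.75%), 508 (83.3%) were above 1 in letter A and 18 had the opposite sign. Of 445 lower in letter A (2.73%), 223 (50.1%) were below -1 in letter B. Of 295 lower in letter B (1.81%), 216 (73.2%) were below -1 in letter A and 0 had the opposite sign. The median of the letter A lower calls was -1.25 in their own letter, and 17 of them had the opposite sign in the other, whereas the letter B higher calls had 1.64 and 1.63.

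Of the annotated barcodes, 867 of 1196 were kept. Of these, 53 were higher and 12 lower, beside 4.19% and 2.14% of all barcodes, and 9 of the 12 held TTTT. Tiles of the CMV and Ef1a promoters and scrambled promoter tiles are among the annotated ones, besides the mouse tiles. Of 612 barcodes on tiles that match the mouse genome (mm10), 14 (2.29%) were called higher, beside 4.19% of all barcodes. These 14 came from 9 tiles, and 8 of them had a sister that was also called while 6 were the only call of their tile. Over 135 such tiles with at least 3 kept barcodes (560 barcodes), differences between tiles made up 14.9% of the variance of the log2 ratio. The SD was 0.48 within tiles and 0.20 between them. These tiles come from the annotated part alone, and the spread within tiles includes the error of single ratios.

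The highest and the lowest tile without a TTTT barcode among those named by rule both lie in introns of Morc2a, which encodes a chromatin-associated ATPase, on the plus strand of mm10. They are shown because the sisters of each lay close together.
High tile, chr11:3681015-3681104: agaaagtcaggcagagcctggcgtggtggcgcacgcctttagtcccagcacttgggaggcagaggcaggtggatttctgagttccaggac
Low tile, chr11:3671174-3671263: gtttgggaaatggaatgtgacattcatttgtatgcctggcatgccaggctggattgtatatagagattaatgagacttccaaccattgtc
The 4 kept barcodes of the high tile had log2 ratios of 1.39, 1.58, 1.92 and 1.97, all called higher. The 5 of the low tile had -0.67, -0.53, -0.45, -0.37 and -0.28. All 5 passed the adjusted p of 0.01 and none reached a 2-fold deficit. RefSeq annotates no exon in either window.

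The next highest medians among the annotated mouse tiles were those of an intronic Foxf1 tile (chr8:121086298-121086387) and of a Fendrr tile in an exon of that lincRNA (chr8:121060010-121060099). Foxf1 encodes a forkhead transcription factor. The Foxf1 tile had 4 kept barcodes between 0.57 and 1.34, with a median of 1.00. The Fendrr tile had a median of 0.67, but its 5 barcodes stood at -0.22, 0.36, 0.67, 2.57 and 2.92. With 50 or more counts in at least 3 DNA libraries its median was 0.36. Here the sisters did not agree, and the SEs of the highest pair were 0.32 and 0.27 against 0.05 to 0.07 for the others.

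Among the annotated mouse tiles with at least 3 kept barcodes, the lowest 2 medians belonged to tiles with TTTT barcodes. The annotation used here covers 1196 of the 23420 barcodes, and tiles outside it were not ranked. An intronic Fendrr tile (chr8:121068263-121068352) had a median of -0.96 from ataTTTTgcc at -1.86, ataTTTTgcg at -1.73, ttattcggcc at -0.19 and acggataatc at 0.36. An intronic tile of Cdkn1a, the gene of a cyclin-dependent kinase inhibitor (chr17:29091994-29092083), had a median of -0.47 from acTTTTgcgt at -1.88, atggagccgt at -0.47 and ggatcgacat at 0.49. In both tiles the barcodes with the run were the lowest, and the sisters without it spanned 0.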

How the data were processed

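The authors counted barcodes of the C2C12 MPRA by sequencing reporter RNA and vector DNA on a HiSeq instrument, and deposited raw counts of 23420 barcodes in 10 libraries. How reads were matched to barcodes is not given in the sources used here. The other 16 processed files hold RNA-seq values and were not used here. Barcodes were kept and scaled as stated above. Barcodes were tested with edgeR 4.0.16 in R 4.3.3 (glmQLFit and glmQLFTest, RNA against DNA), and contrasts per library by an exact permutation test (scipy 1.17.1), adjusted over 8 values. Their log2 values use a pseudocount of 0.5 counts. Alternatives were TMM, RLE and total-count scaling, other filters, DESeq2 1.42.0, a replicate block, letter as a covariate, each letter alone and leaving out each library. Named by rule were the 6 highest and 6 lowest called barcodes and the 3 most counted in RNA and in DNA. Among annotated mouse tiles with at least 3 kept barcodes, the 3 highest and 3 lowest were also named by rule. Other named barcodes were chosen after their values were seen. Tile sequences are from the oligo annotation and match mm10, and gene positions are from RefSeq on that build. Members, contrasts and lists were chosen with earlier results of these data known. The fits were tested on simulated data.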

Additional observations from a re-analysis of the deposited data

Results flagged for a closer look

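Barcodes outside the filter held counts in some libraries and not in others. The DNA A_1 library had 418 of the 7135 such barcodes at 10 or more counts, against 50 to 145 in the other DNA libraries, and it stood apart from them. They took 0.119% of its counts, against 0.027% to 0.043% in the other DNA libraries, which also set it apart. Among 54 groups of 5 libraries looked at in this way, these 2 had an outlying library, and chance gives about 1 in 20.

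A set of 355 barcodes outside the filter had 10 or more counts in RNA B_1, RNA B_3 and DNA A_1 together. Their median counts were 61, 43 and 19 in those libraries, 12 in RNA B_2 and 4 in DNA A_3. In RNA A_1, RNA A_2, DNA A_2, DNA B_1 and DNA B_2 their medians were 0 or 1. The set was chosen by counts in RNA B_1, RNA B_3 and DNA A_1 and by failing the DNA filter. High medians in those libraries and low ones in the other DNA libraries thus follow from the choice. RNA A_1, RNA A_2 and RNA B_2 did not enter it. An example, aaccaatagc, had 237 counts in RNA B_1, 96 in RNA B_3 and 92 in DNA A_1, against 0 to 4 in RNA A_1, RNA A_2, DNA A_2, DNA B_1 and DNA B_2. Over the 7135 barcodes the log2 counts of RNA B_1 and DNA A_1 had a Pearson's r of 0.790. The cause was not tested.

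Another 126 barcodes outside the filter had 10 or more counts in all 5 RNA libraries, and 13 of them had fewer than 10 DNA counts in all. The most abundant, cgagagcgat, had 493 to 846 counts in the RNA libraries and 0 to 18 in the DNA libraries.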

How the results depend on the processing

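Numbers of called barcodes stayed within 1.5 times of the reported ones under every alternative except total-count scaling (328 higher and 2811 lower, of the latter 293 with TTTT and 2518 without) and a log2 minimum of 0 (3809 higher and 3130 lower, of the latter 2847 without TTTT). Lower calls without TTTT were also 284 in letter A and 99 in letter B. Without filter on DNA counts, 895 of 21406 barcodes were higher and 290 lower. DESeq2 gave 686 and 357. The replicate block gave 625 higher and 356 lower. The numbers did not pair the libraries, since same-numbered RNA and DNA libraries had correlations of -0.08 to 0.07 in their deviations from the group means, and 1 of 4 RNA libraries correlated best with its own number. Leaving out each library gave 617 to 693 higher and 331 to 374 lower calls, 191 to 200 of them with TTTT and 138 to 179 without.

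Under leaving out each library, the RNA minus DNA differences ran from 25.6 to 26.1 percentage points (top 1%), 0.463 to 0.507 (scatter), -0.39 to -0.31 (GC), -0.27 to -0.19 (CpG), -0.52 to -0.50 (homopolymers), -0.20 to -0.14 (T content), 0.21 to 0.27 (neighbours) and -1.17 to -1.10 (TTTT). The slope difference changed sign, from -0.0052 to 0.0095. It was 0.0170 with 50 or more DNA counts and 0.0123 with 10 or more counts in all 5 DNA libraries. In letter A it was 0.0205, and without RNA B_1, RNA B_3, DNA A_1 and DNA A_3 it was 0.0088.

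Single letters cannot reach p under 0.05. Letter A gave 25.0 points (top 1%), 0.537 (scatter), -0.47 (GC), -0.32 (CpG), -0.47 (homopolymers), -0.0839 (T content) and 0.22 (neighbours). Letter B gave 26.4, 0.453, -0.17, -0.0944, -0.57, -0.30 and 0.28 in the same order. Without the 4 libraries (RNA B_1 and B_3, DNA A_1 and A_3; chosen after seeing the data, smallest p 0.1) the values were 25.5, 0.489, -0.26, -0.13, -0.53, -0.21 and 0.20. Without TTTT barcodes, also chosen after seeing the data, homopolymers gave -0.0055 and T content 0.0403. The barcode taaTTTTgcg lost its call without filter, with the block, in each letter and without the 4 libraries. Also lost were taTTTTTTcg in letter A and without the 4 libraries, and gaacTTTTac in letter A. Depth limits single ratios in the lowest DNA decile.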
